A study of Mus musculus with 3 samples.

Results

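The comparison described here sets granulosa cells of the ovarian follicle just before human chorionic gonadotropin (hCG, 0 h) against granulosa cells 12 h after it, by the stretches of the genome that carry histone H3 trimethylated on lysine 4 (H3K4me3). Both libraries came from wild-type C57BL/6 female mice of postnatal day 21 to 28 that were first given 4 IU of equine chorionic gonadotropin (eCG), which drives follicle growth. The 12 h mice had also received 5 IU of hCG, which acts on the luteinizing hormone (LH) receptor and starts ovulation and luteinization, and all libraries were made with an anti-H3K4me3 antibody from cells released by follicle puncture. There was 1 library per time, a further library at 4 h is used only to give levels in between, and the sources used here do not say how many mice were pooled. For each of 21631 protein-coding genes on the autosomes and X, the bp covered by deposited peaks were summed over the gene and 5 kb on each side. Of these genes, 12885 (59.6%) had covered bp at either time and make up the comparison.

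H3K4me3 is laid down by the SET1 and MLL methyltransferase complexes around the start sites of active or activatable genes, and broad domains of it are a known feature of strongly used cell identity genes. Granulosa cells of a growing follicle respond to FSH, convert androgen to oestradiol and divide. After the LH surge they leave the cell cycle, switch to progesterone synthesis, remodel the follicle wall and attract new vessels as the corpus luteum forms.

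Before hCG the list held 22208 peaks on the autosomes and X (8.87 Mb), and 12 h later it held 20644 (8.92 Mb). Median peak width was 306 bp at 0 h and 333 bp at 12 h, and peaks of at least 1000 bp made up 4.08% and 5.26%. The lists give positions only, so sequencing depth and peak height are unknown. By their labels the 0 h library came from lane 4 and the 12 h library from lane 5, and the peak names of the 12 h list lack a tag carried by the names in the other lists. Lane, naming and time cannot be told apart, and with 1 library per time no difference has a replicate check or a test.

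Most of the marked genome was common to both times. Peaks that overlapped between the lists made up 75.2% of peaks and 86.4% of covered bp at 0 h, and 78.5% and 87.7% at 12 h. Those found at 0 h alone were narrow, with a median of 182 bp against 376 bp for the shared ones, and those found at 12 h alone had a median of 209 bp against 394 bp. By gene, 11729 were covered at both times, 593 at 0 h alone and 563 at 12 h alone.

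A gene was called higher or lower when its covered bp, with 200 bp added at each time, differed at least 2-fold. The added 200 bp understate the change of thinly covered genes, and every log2 ratio below is on that scale. By this rule 639 genes were called higher at 12 h (4.96% of covered genes), 584 were called lower (4.53%), so that 9.49% were called in either direction and 11662 (90.5%) were neither. The median log2 ratio was -0.02, and the 5th and 95th percentiles were -0.95 and 0.997. Among the genes called higher, 369 were listed at 0 bp before hCG, and among those called lower, 347 were listed at 0 bp at 12 h. Neighbouring genes can share peaks, and the calls came from 566 separate loci with more coverage and 495 with less. Of the genes given below, Inha, Spry4, Prkaca, Wnt5b, Chrd and Timp3 have all their 0 h and 12 h coverage also in other gene windows. The same holds for Cdc6, Cdkn2d, Ndufs8, Slc2a8, Rpl35 and Kdm5a, and for some genes flagged where they are named. Other genes share part of theirs. Where a gene had less coverage, fewer cells of a type that carries the mark and less mark per cell cannot be told apart.

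**Figure D1:**
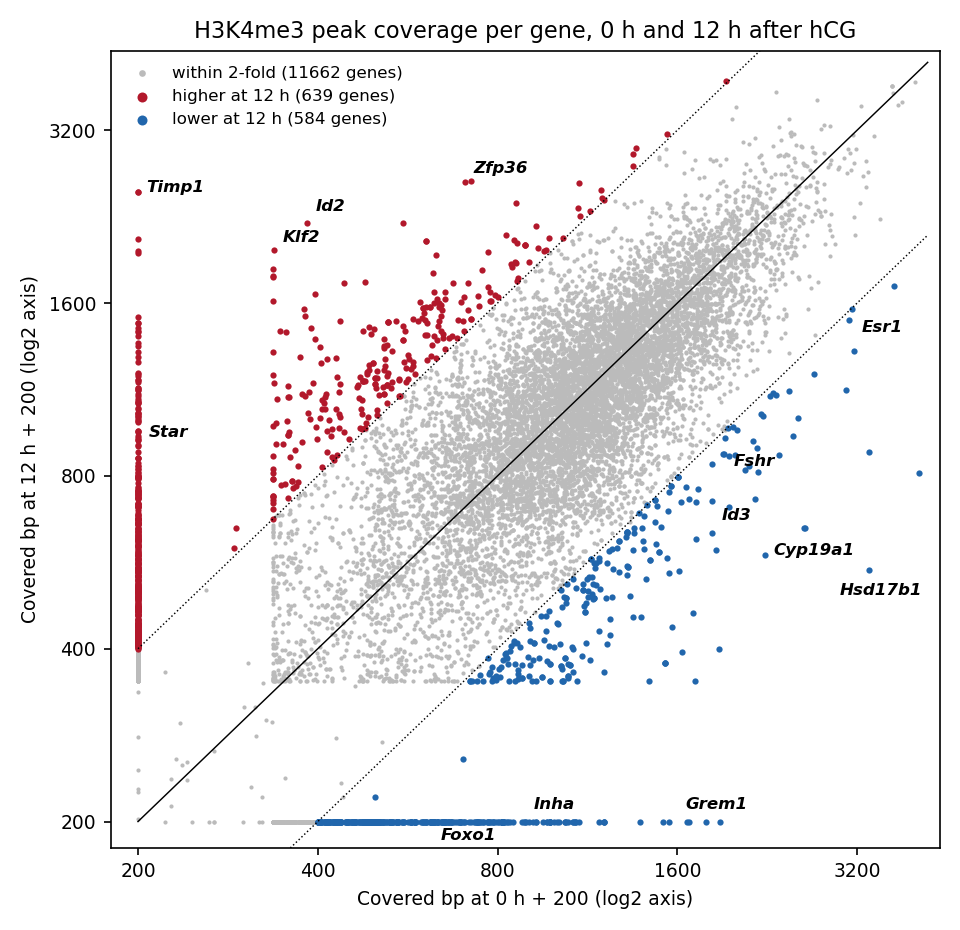
Covered bp per gene at 0 h (horizontal) and 12 h (vertical), each with 200 bp added, on log2 axes, with 1 point per gene. The solid line marks equal coverage and the dotted lines the 2-fold limits, with 639 genes above and 584 below, and the columns of points at 200 are genes listed at 0 bp at that time.

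In the called genes, new or lost peaks made up most of the change, which the call rule partly fixes. Listed at 0 bp at the other time were 369 of the 639 genes called higher and 347 of the 584 called lower. In those genes shared peaks can hardly contribute. A peak in the windows of several genes is counted for each of them here. In the genes called higher, peaks found at 12 h alone added 300347 bp, while shared peaks were wider by 96077 bp. In the genes called lower, peaks found at 0 h alone accounted for 272622 bp, and the change in shared peaks was -68610 bp. The level at 4 h lay between the other values in 331 of the 639 genes called higher and in 354 of the 584 called lower. In 186 of the genes called higher the 4 h level was already at or above the 12 h level, and in 140 of those called lower it was still at or above the 0 h level. Over all covered genes the 4 h level was at or above both others in 5775 (44.8%), and the 4 h list was larger as a whole (23619 peaks, 10.1 Mb), so a higher value at 4 h was common.

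Part of the differing coverage lay near start sites. Peaks found at 1 time alone were within 1 kb of a start site less often (50.4% at 0 h and 44.2% at 12 h) than shared peaks (68.3% and 68.4%). Start sites came from RefSeq promoter entries. For a gene with several, the entry with the most covered bp within 1 kb, 0 h and 12 h together, was used. The start sites were thus picked with these same peaks, which can raise the shares that follow. An entry gave the start site of 482 genes called higher, and 375 of them (77.8%) had a 12 h peak within 1 kb of it. Of 453 genes called lower with an entry, 359 (79.2%) had a 0 h peak within that distance. The shares over all covered genes with an entry were higher, 84.9% at 0 h and 84.5% at 12 h. Within 1 kb of the start, 289 of the 482 and 290 of the 453 were past 2-fold in the same direction. The position of coverage around the start is described next for groups that were formed from the same peak lists, so the order of the times in each group follows from the grouping. In the lower group, the share of genes inside a peak reached 42.8% at 300 bp downstream of the start at 0 h, 34.4% at 4 h and at most 10.6% at 12 h. In the higher group the same maximum was 12.0% at 0 h, 35.7% at 4 h and 45.2% at 12 h. Genes within the 2-fold limits reached 62.1% at 0 h and 63.2% at 12 h.

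**Figure D2:**
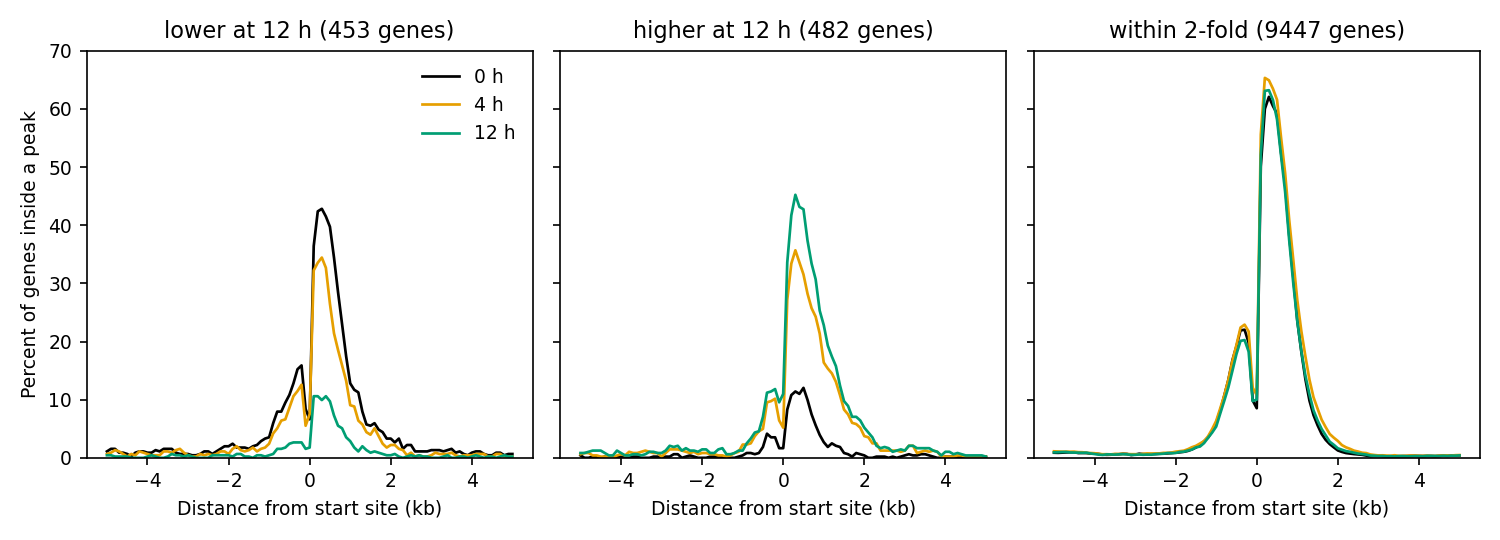
Percent of genes inside a peak (vertical) against the distance from the annotated start site in kb (horizontal, positive into the gene) at 0 h, 4 h and 12 h, for genes called lower, called higher and within 2-fold. The 12 h line is lowest in the left panel and highest in the middle panel, and the lines nearly coincide in the right panel, an order set by how the groups were formed.

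Coverage of the RefSeq promoter stretch itself (GRCm38.p6, 250 bases before to 50 after the start) was counted for a selected set of called genes. Among genes on the lists below or named by the rule for this comparison, 27 of 100 called higher and 19 of 81 called lower had any covered base there. The share over all covered genes was not counted. The 5 stretches printed here are examples of covered ones, chosen after their values were seen, to show the sequence that was inside peaks at 1 time and not the other. Capitals mark the bases inside a peak at 12 h, or at 0 h for Tk1, and each is written 5′ to 3′ on the strand of its gene. Sphk1 (sphingosine kinase, LH-response list, chr11:116532201-116532500, plus strand) had 0 covered bases at 0 h, 89 at 4 h and 186 at 12 h. Mt2 (metallothionein, chr8:94172368-94172667, plus strand) had 0, 86 and 103. Hmga2 (a chromatin architectural protein, chr10:120476420-120476719, minus strand) had 0, 218 and 183, so its count was lower at 12 h than at 4 h. Osmr (the oncostatin M receptor, chr15:6874264-6874563, minus strand) had 0, 0 and 137. Tk1 (thymidine kinase, chr11:117825965-117826264, minus strand) had 263, 0 and 0, and its window also takes in parts of Afmid and Syngr2.
Sphk1: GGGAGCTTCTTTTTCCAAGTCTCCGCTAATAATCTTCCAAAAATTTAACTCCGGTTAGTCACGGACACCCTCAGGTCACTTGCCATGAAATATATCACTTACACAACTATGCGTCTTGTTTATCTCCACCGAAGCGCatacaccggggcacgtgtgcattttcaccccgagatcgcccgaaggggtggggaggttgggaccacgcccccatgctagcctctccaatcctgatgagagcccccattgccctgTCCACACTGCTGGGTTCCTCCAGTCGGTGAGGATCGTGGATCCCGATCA
Mt2: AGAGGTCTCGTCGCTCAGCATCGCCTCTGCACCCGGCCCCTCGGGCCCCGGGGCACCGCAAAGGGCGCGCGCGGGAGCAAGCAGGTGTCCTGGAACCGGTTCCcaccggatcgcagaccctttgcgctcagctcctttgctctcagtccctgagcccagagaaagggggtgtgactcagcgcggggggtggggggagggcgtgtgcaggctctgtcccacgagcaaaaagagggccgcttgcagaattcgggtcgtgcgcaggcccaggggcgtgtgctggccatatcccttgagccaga
Hmga2: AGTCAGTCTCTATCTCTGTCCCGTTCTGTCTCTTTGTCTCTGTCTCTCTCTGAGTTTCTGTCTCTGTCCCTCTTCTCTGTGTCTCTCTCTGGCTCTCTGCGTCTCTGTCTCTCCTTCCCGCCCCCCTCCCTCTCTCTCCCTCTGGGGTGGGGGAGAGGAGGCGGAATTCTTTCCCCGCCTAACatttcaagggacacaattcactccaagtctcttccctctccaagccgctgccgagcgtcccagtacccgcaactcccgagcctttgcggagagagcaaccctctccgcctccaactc
Osmr: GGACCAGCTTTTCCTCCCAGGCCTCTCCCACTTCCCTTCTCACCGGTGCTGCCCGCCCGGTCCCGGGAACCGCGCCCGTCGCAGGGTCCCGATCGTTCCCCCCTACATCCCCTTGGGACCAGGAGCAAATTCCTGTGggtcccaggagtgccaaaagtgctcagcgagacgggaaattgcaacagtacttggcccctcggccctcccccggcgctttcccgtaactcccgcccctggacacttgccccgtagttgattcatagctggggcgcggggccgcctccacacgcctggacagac
Tk1: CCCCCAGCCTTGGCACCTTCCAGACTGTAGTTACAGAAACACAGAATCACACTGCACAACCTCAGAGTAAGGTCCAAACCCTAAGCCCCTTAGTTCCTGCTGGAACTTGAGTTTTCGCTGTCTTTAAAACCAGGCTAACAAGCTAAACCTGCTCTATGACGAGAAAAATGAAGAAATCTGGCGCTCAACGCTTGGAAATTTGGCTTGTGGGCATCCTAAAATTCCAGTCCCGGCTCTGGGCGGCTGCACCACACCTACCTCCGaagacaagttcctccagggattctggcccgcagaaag
The Mt2 and Osmr stretches each held 1 match to the AP-1 motif TGANTCA, the site of Fos and Jun dimers, searched on both strands, and both matches lie outside the covered bases. That motif was in 7.04% of all promoter entries, 4.33% of those of covered genes, 8.51% (41 genes) of those of genes called higher and 6.84% (31 genes) of those called lower. The GC box GGGCGG, a site of Sp factors, had 2 matches in the Osmr stretch and 1 each in those of Hmga2 and Tk1, and 66.2% of covered genes held it against 62.2% and 56.7% of those called higher and lower.

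Genes of follicular growth and granulosa identity had less coverage at 12 h. Of 52 covered members of this list, 15 (28.8%) were called lower and 3 higher, against 4.53% and 4.96% of all covered genes. Their median log2 ratio was -0.39, 37 lay below 0, and their summed coverage was 57637 bp at 0 h, 47486 bp at 4 h and 36839 bp at 12 h. Of the 52, 48 were covered at 0 h and 45 at 12 h. The number called lower was 7 when 500 bp were added in place of 200, and 1 was then called higher. Over all covered genes the shares with 500 bp added were 1.11% lower and 1.43% higher. Of all genes covered within 1 kb of the start site, 4.49% were called in each direction there. Within 1 kb of the start site, where 31 members had coverage, 5 were called lower and 4 higher and the median was -0.07, so the list was not one-sided there.

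The oestrogen pathway held several of the lower members. Hsd17b1, which makes oestradiol from oestrone (chr11:101077968-101081188), had 3146 bp at 0 h, 1304 bp at 4 h and 349 bp at 12 h, a log2 ratio of -2.61. Its peaks also fall in the windows of Naglu and Coasy, so these 3 genes count much of the same signal. Cyp19a1, the aromatase (chr9:54165937-54268164), had 2045, 845 and 382 bp (log2 ratio -1.95). The oestrogen receptor Esr1 had 2907, 1833 and 1295 bp (-1.06). Esr2, the main oestrogen receptor of granulosa cells, had 2041, 1750 and 1222 bp and missed the limit at -0.66. For all 4, the 4 h level lay between the others.

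Receptors and factors of the growing follicle followed. Fshr, the FSH receptor, had 1707, 1495 and 675 bp at 0 h, 4 h and 12 h (-1.12), most of it still present at 4 h. Npr2, the receptor through which granulosa cells keep the oocyte arrested, had 1755, 1158 and 667 bp (-1.17). Its ligand gene Nppc, with 1721, 778 and 761 bp, lay just outside the limit at -0.999. Ihh, a hedgehog ligand of the follicle, had 1802, 1308 and 671 bp (-1.20). Nap1l5, an imprinted gene whose peaks lie in the window of Herc3, had 1717, 920 and 673 bp (-1.13). Each of these kept some coverage at 12 h.

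The other 7 members called lower were listed at 0 bp at 12 h. Grem1, a secreted BMP antagonist (chr2:113748675-113758648), had 1585 bp before hCG and 166 bp at 4 h. Gata6, a transcription factor of steroidogenic cells, had 1350 and 324 bp. Foxo1, the forkhead factor of growing granulosa cells, had 617 bp at 0 h and none at 4 h, and Mro, a gene first known from the male gonad, had 840 bp and none. Inha, the inhibin alpha subunit, differed from these in having more at 4 h (995 bp) than at 0 h (780 bp). Igfbp5 (an IGF-binding protein) and Vnn1 (a pantetheinase) also had more at 4 h (543 and 323 bp) than at 0 h (256 and 245 bp). In the other direction, Wnt4 and Wt1 were listed at 0 bp at 0 h and 4 h and had 434 and 304 bp at 12 h, and Emx2, a homeobox gene, had 0, 1101 and 752 bp.

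**Figure D3:**
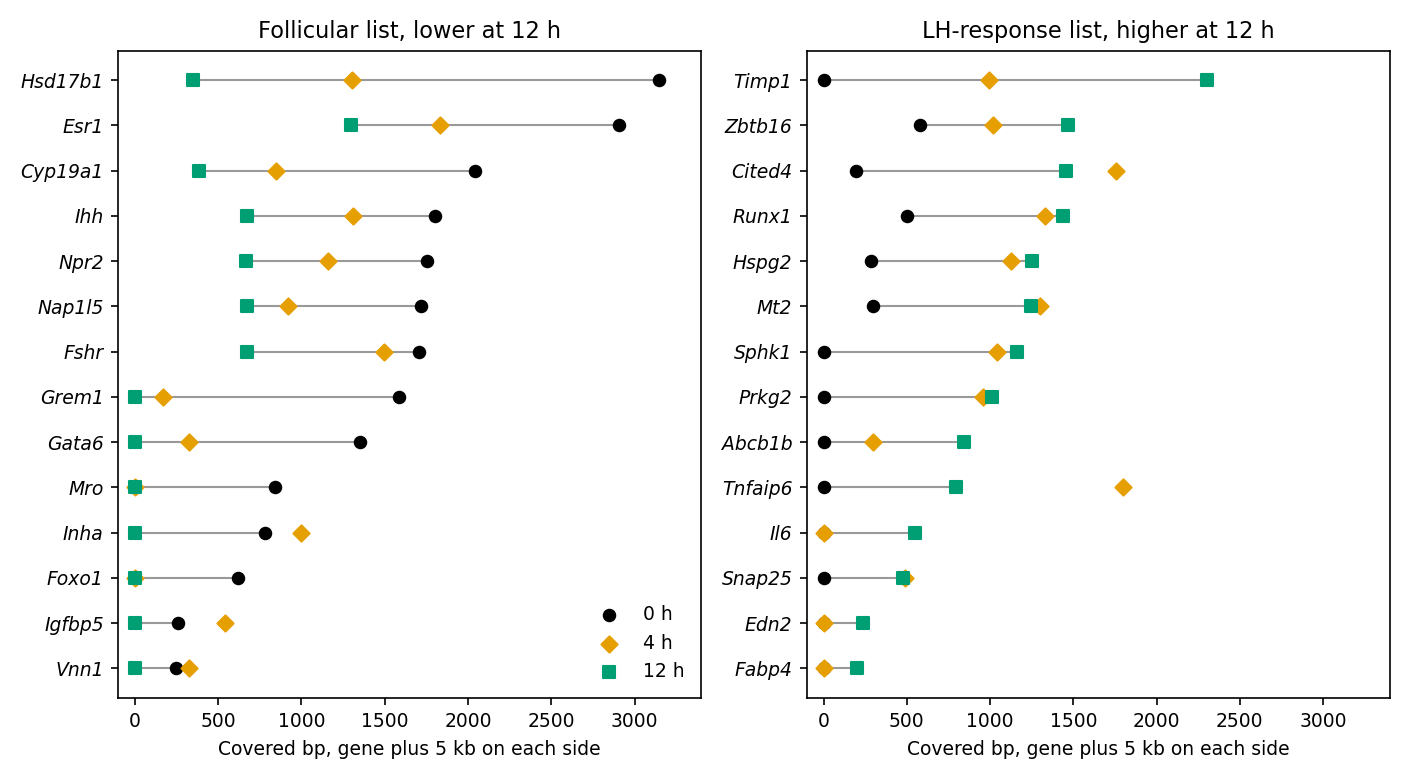
Covered bp (horizontal) at 0 h, 4 h and 12 h for 14 of the follicular genes called lower (left) and the 14 LH-response genes called higher (right), with a line joining 0 h and 12 h. Genes reach 0 bp at 12 h on the left and start at 0 bp on the right in several rows, and Tnfaip6, Cited4 and Inha have their highest value at 4 h.

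The granulosa label was checked against its markers. At 0 h, Fshr, Cyp19a1, Hsd17b1, Esr2, Inha, Gata4, Foxl2, Nr5a2 and Amhr2 were covered, and at 12 h all of these but Inha still were. Amh was listed at 0 bp at all times, and Inhba had only 174 bp, at 4 h. Of 18 endothelial markers 5 were covered, with a summed coverage of 1040, 978 and 164 bp at 0 h, 4 h and 12 h. Called lower were 4 of them (Flt4, Sox18, Esam and Egfl7), each with only 220 to 302 bp at 0 h. The other, Kdr, had 0, 347 and 164 bp, so it went the other way without being called. Pecam1, Cdh5 and Tek were listed at 0 bp throughout. Of 21 immune markers 4 were covered (3459 and 3878 bp at 0 h and 12 h), and none was called. Cd68, Fcgr3 and Coro1a had more at 12 h and Cd79a less, the last wholly in other gene windows. Cd3e, Csf1r and Itgam were at 0 bp. Of 12 theca markers 6 were covered (4641 and 5279 bp), and none was called. Nr2f2, Gli1, Ptch1 and Pdgfra had more at 12 h, Aldh1a1 less and Hhip the same. Cyp17a1 and Insl3 were at 0 bp. Among oocyte markers 4 of 18 were covered (1554 and 1084 bp) and Dazl was called lower. Of the others, Gdf9 and Mos had less at 12 h and Kit more. For surface epithelium it was 3 of 11 (1348 and 538 bp), with Krt8 called lower. The part of these cells in the differences was not tested.

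The ovulatory LH-response list had its calls on the other side. Of its 42 covered members, 14 (33.3%) were called higher and none lower, against 4.96% and 4.53% of all covered genes. The median log2 ratio was 0.54 and 31 lay above 0. All 42 were covered at 12 h but only 32 at 0 h. A gene listed at 0 bp at 0 h can be called higher but not lower. Of all 563 such covered genes, 369 were called higher. The counts and median of this list are thus partly set by which genes entered the comparison. Summed coverage was 25509 bp at 0 h, 49634 bp at 4 h and 41943 bp at 12 h. The number called higher was 9 when 500 bp were added, and 9 of 30 within 1 kb of the start site, where 1 was called lower and the median was 0.14.

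Timp1, an inhibitor of matrix metalloproteinases (chrX:20870166-20874737), was listed at 0 bp before hCG, had 995 bp at 4 h and reached 2300 bp at 12 h. Its 12 h peaks spanned 1262, 576 and 462 bp, starting with chrX:20870341-20871602. Timp1 lies within Syn1, whose equal values are the same peaks. Cited4, a transcriptional co-activator, had 196, 1756 and 1459 bp (log2 ratio 2.07). Sphk1 had 0, 1043 and 1164 bp, and Prkg2, a cyclic GMP-dependent kinase, had 0, 958 and 1010 bp. Nearly all the 12 h coverage of Sphk1 and Prkg2 was thus matched in amount by 4 h.

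The 10 further members called higher spanned several functions. Tnfaip6, a hyaluronan-binding protein of the expanding cumulus, had 0, 1797 and 794 bp. Hspg2, the basement membrane proteoglycan perlecan, had 287, 1124 and 1252 bp (1.58). Runx1, a transcription factor induced by LH, had 502, 1327 and 1440 bp (1.22), and Zbtb16, a zinc finger repressor, had 578, 1020 and 1470 bp (1.10). Mt2 had 296, 1297 and 1243 bp (1.54). Abcb1b, a membrane transporter, had 0, 295 and 844 bp, and Snap25, a vesicle fusion protein, had 0, 488 and 479 bp. These 7 genes were all covered by 4 h. Il6 (547 bp), Edn2 (240 bp), the endothelin that contracts the follicle wall, and Fabp4 (201 bp), a fatty acid carrier, were covered only at 12 h.

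A net comparison misses some of the best known targets of LH, named here after their values were seen. Areg, Ptgs2 and Ptx3 were listed at 0 bp at both times. Runx2 had 899 and 895 bp at the ends of the comparison, but 3993 bp at 4 h. Btc, an EGF-like ligand, had 623, 1598 and 834 bp, and Ereg had 136, 478 and 312 bp. Pgr, the progesterone receptor, had 740, 845 and 414 bp (-0.61), and Adamts1, a protease that cleaves versican, had 1572, 1831 and 1131 bp (-0.41). Lhcgr, the LH receptor, had 1198, 1314 and 1573 bp (0.34). None of these passed the 2-fold limits between 0 h and 12 h.

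Many immediate early genes still had wider coverage at 12 h than before hCG. Of 46 covered members, 9 (19.6%) were called higher and 1 (2.17%) lower, against 4.96% and 4.53% of all covered genes. The median log2 ratio was 0.29 and 34 lay above 0. Within 1 kb of the start site 5 of 33 were called higher, and by number of peaks the median was 0. Zfp36, which destabilises cytokine mRNAs (chr7:28376784-28379228), had 506, 1376 and 2402 bp (1.88). Id2, an inhibitor of basic helix-loop-helix factors (chr12:25093799-25096092), had 184, 1512 and 2005 bp (2.52). Klf2, a zinc finger factor (chr8:72319062-72321654), had 138, 1717 and 1776 bp (2.55). Zfp36 and Id2 had more coverage at 12 h than at 4 h, while Klf2 was near its 12 h value at 4 h.

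Junb had 136, 1839 and 1579 bp (2.40), though its window overlaps that of Prdx2. Fosl1 had 269, 810 and 892 bp (1.22) and Hes1, a Notch target, 211, 1041 and 898 bp (1.42). Arc (0, 1250 and 797 bp), Egr3 (0, 498 and 802 bp) and Ccn1 (0, 627 and 554 bp) were listed at 0 bp before hCG. Egr1, with 779, 2726 and 1754 bp, lay just outside the limit at 0.997. The member called lower was Id3, of the same family as Id2, with 1956, 1891 and 530 bp (-1.56). Its relative Id1 had 2162, 1868 and 1315 bp (-0.64), so the Id genes did not share a direction.

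**Figure D4:**
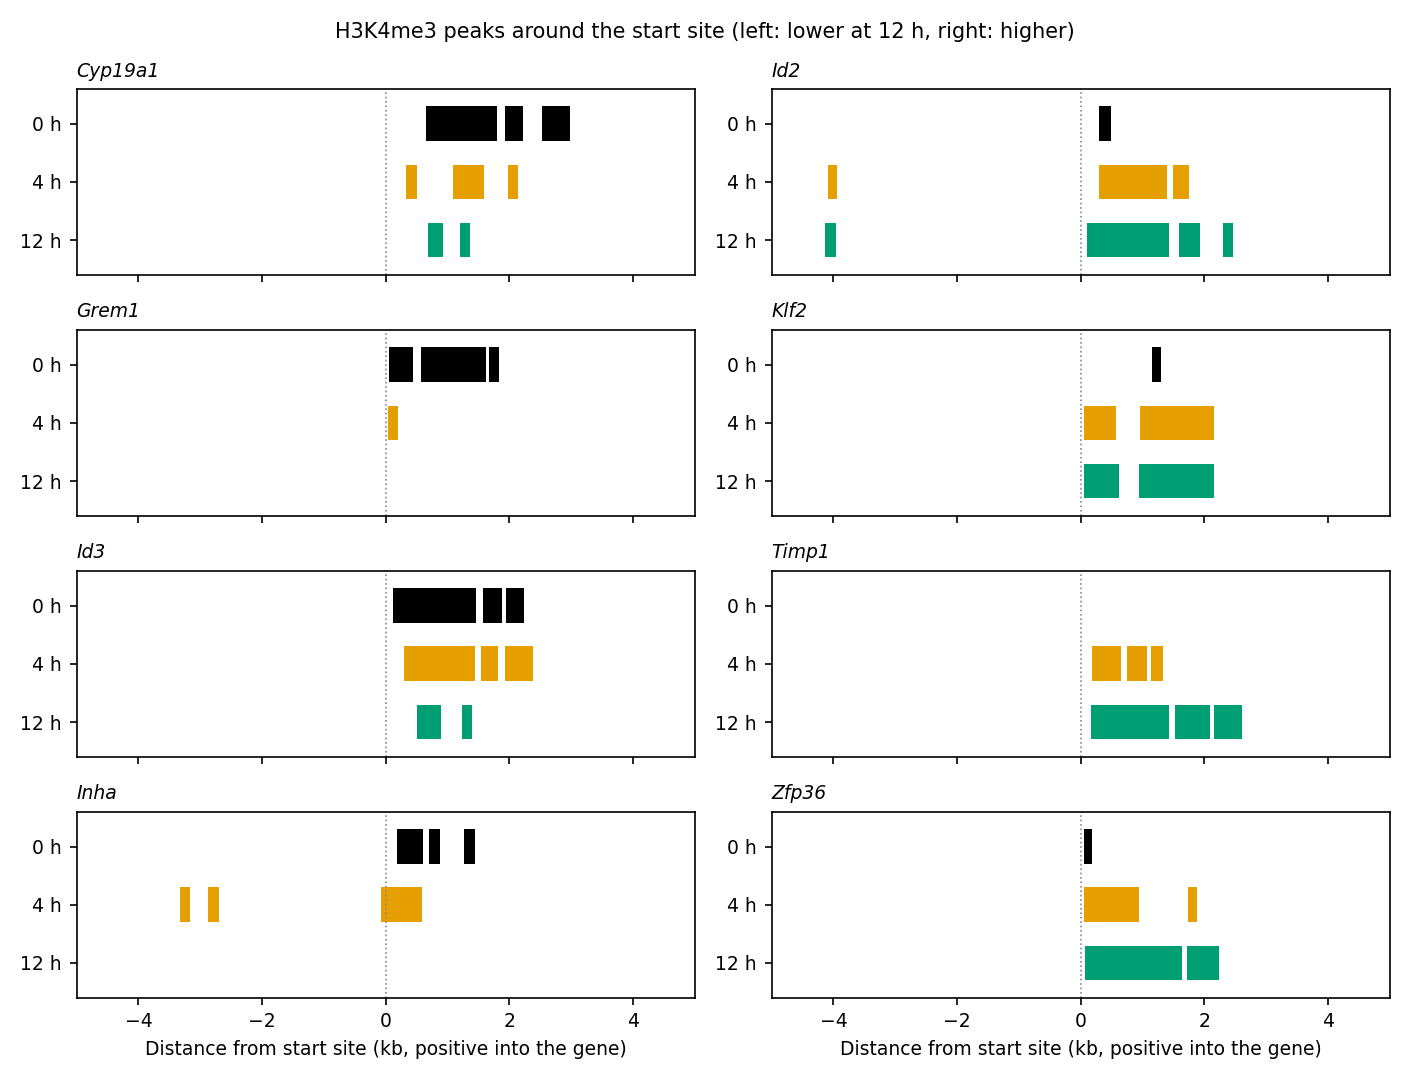
Peaks at 0 h, 4 h and 12 h around the start site (distance in kb, positive into the gene) of 4 genes called lower (left) and 4 called higher (right), drawn to scale. On the right, the stretch covered downstream of the start of Id2, Klf2, Timp1 and Zfp36 is longer at 12 h than at 0 h, and on the left Grem1 and Inha have no peak at 12 h.

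Feedback regulators of the ERK and cyclic AMP cascades, which relay the LH signal, had 39 covered members (median 0.22). Of these, 8 (20.5%) were called higher and 3 (7.69%) lower, against 4.96% and 4.53% of all covered genes. With 500 bp added these were 4 and 0, and within 1 kb of the start site 1 of 27 was called higher and none lower. Higher members included the salt-inducible kinase Sik1 (570, 2185 and 1760 bp, log2 ratio 1.35) and the EGF receptor inhibitor Errfi1 (757, 1702 and 1774 bp, 1.04, but -0.43 within 1 kb of its start site). Spry4, an ERK pathway inhibitor, had 196, 834 and 1185 bp (1.81). Prkaca, the catalytic subunit of protein kinase A, had 1007, 1548 and 2215 bp and passed the limit narrowly. The lower members were the phosphodiesterase Pde7b (1519, 1482 and 520 bp, -1.26), the scaffold Akap12 (493, 374 and 0 bp) and the transcription factor Creb5 (640, 725 and 197 bp, -1.08).

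Few steroidogenic genes were called. Of 29 covered members of the progesterone and luteal list, 3 (10.3%) were called higher and none lower, with a median of 0.10. Over all covered genes the shares were 4.96% and 4.53%. The members called were Star, Cyp11a1 and Prkaca, which is also on the ERK and cyclic AMP list. Prkaca passed the limit narrowly, and all its covered bp at 0 h and 12 h also fall in other gene windows. The direction turned by number of peaks (2 higher, 6 lower, median -0.22) and the median turned with peaks within 1 kb joined (3 higher, 2 lower, -0.04). Star, which carries cholesterol into mitochondria, had 0, 1567 and 757 bp. Cyp11a1, which cleaves its side chain to pregnenolone, had 0, 437 and 353 bp. Both were thus marked at 4 h and less covered at 12 h than at 4 h. Hsd3b1, the next enzyme towards progesterone, had 2355, 3177 and 2359 bp, the same level at both ends of the comparison (this gene and Scarb1, the HDL receptor, with 1696, 1444 and 1493 bp, were chosen after their values were seen).

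Cholesterol synthesis, uptake and storage showed 27 of 39 covered members above 0 (median 0.11), but only 2 were called higher and 1 lower. These are shares of 5.13% and 2.56%, against 4.96% and 4.53% of all covered genes. By number of peaks 1 member was higher and 6 lower. Dhcr7, a late enzyme of cholesterol synthesis, had 735, 2243 and 1794 bp (1.09), and Acat2, a thiolase at its start, had 302, 569 and 1019 bp (1.28). Srebf1, a sterol-regulated transcription factor, had 938, 627 and 333 bp (-1.09, against 0.03 within 1 kb of its start site).

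Signals to vessels and immune cells had higher shares of calls than all covered genes (4.96% higher and 4.53% lower). Some members were covered at 12 h only, and these can be called higher but not lower. Of all 563 genes covered at 12 h alone, 369 were called higher. In the angiogenic list, 32 members were covered at 0 h and 37 at 12 h. Of its 38 covered members, 8 (21.1%) were called higher and 2 (5.26%) lower (median 0.32). With 500 bp added, however, 1 was higher and none lower. The Notch ligands Jag1 (301, 1110 and 937 bp, 1.18) and Dll4 (0, 614 and 505 bp) were among the higher, as were Notch4 (322, 595 and 953 bp, 1.14, all shared with neighbouring genes) and the semaphorin receptor Nrp2 (0, 331 and 396 bp). Thbs1, an anti-angiogenic matrix protein, had 1153, 1080 and 450 bp (-1.06), and Notch3 had 341, 169 and 0 bp, which did not hold with a flank of 10 kb (0.08). The endothelial markers given above had less, not more, summed coverage at 12 h, though Kdr went the other way.

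Of 37 covered cytokines, chemokines and receptors, 9 (24.3%) were called higher and 3 (8.11%) lower (median 0.08), and 5 and 2 with 500 bp added. Of these 37, 28 were covered at 0 h and 36 at 12 h. Clcf1, a ligand of the IL-6 family, had 0, 938 and 1090 bp, and Cxcr4, the receptor of the chemokine CXCL12, had 554, 1540 and 1625 bp (1.28), in fewer and wider peaks. Tnfrsf12a, the receptor of TWEAK, had 688, 1707 and 1817 bp (1.18), shared with neighbours. Within the IL-6 family Osmr (0, 0 and 336 bp) was also higher, while Lifr, the LIF receptor, was lower with 1351, 1020 and 342 bp (-1.52). Socs2, an inhibitor of cytokine signalling, was lower with 549, 904 and 160 bp (-1.06), and Ackr3, a scavenger receptor of CXCL12, had 619, 351 and 0 bp.

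Among collagens, basement membrane and adhesion genes, 7 of 32 (21.9%) were called higher and 2 (6.25%) lower (median 0.06), and 3 and 1 with 500 bp added. Over all covered genes the shares were 4.96% and 4.53%. At 0 h 27 of the 32 were covered, and at 12 h 31. Col4a1 and Col4a2, the main collagen IV chains, share their promoter and the same 0, 588 and 631 bp. Sparc, a collagen-binding matricellular protein, had 421, 1396 and 1153 bp (1.12). Lama4, a laminin chain, was lower with 1626, 520 and 437 bp (-1.52), and so was Nid2, with 203, 139 and 0 bp. Of 41 matrix proteases and inhibitors, 4 (9.76%) were called higher and 2 (4.88%) lower (median -0.02). They included Timp1, the cross-linking enzyme Lox (0, 538 and 598 bp) and, in the lower direction, Timp3 (1147, 747 and 394 bp, -1.18).

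Paracrine pathways of the follicle gave mixed or one-sided counts. In the Wnt list, 8 of 32 covered members were called higher and 1 lower (median 0.45), and 3 and 0 with 500 bp added. The higher members were 5 ligand genes, a receptor and 2 feedback inhibitors. Wnt5b had 181, 1461 and 1320 bp (1.996), with all of its 0 h and 12 h coverage shared with neighbouring genes, and Wnt2 had 0, 257 and 516 bp. Axin2 (484, 1214 and 1190 bp, 1.02, but -0.32 within 1 kb of its start site) and Nkd1 (0, 325 and 614 bp) are both targets and inhibitors of the pathway. The receptor gene Fzd6 was the lower one (278, 575 and 0 bp). In the TGF-beta, BMP and activin list, 5 of 38 (13.2%) were called in each direction (median -0.09), and 1 higher and 3 lower with 500 bp added. Its lower members Bmp2 (1076, 642 and 345 bp, -1.23), Smad6 (795, 281 and 202 bp, -1.31), an inhibitory SMAD, Grem1, Inha and Id3 stood against the higher members Id2, Ltbp3 (495, 1033 and 1405 bp, 1.21, but -0.86 within 1 kb of its start site), which anchors latent TGF-beta, Chrd (0, 139 and 352 bp), Nbl1 (0, 810 and 335 bp) and Bmp4 (0, 435 and 206 bp). In the IGF and insulin list 2 of 27 (7.41%) were called higher and 3 (11.1%) lower. Stc2 (176, 723 and 911 bp, 1.56) and its relative Stc1 (503, 386 and 0 bp) were on opposite sides.

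Genes of DNA replication and mitosis had slightly less coverage as a group. All 60 listed genes were covered, and 40 lay below 0 with a median of -0.15. Only 3 (5.0%) were called lower, near the 4.53% of all covered genes. The share called higher was 1.67% (1 gene), below the 4.96% of all covered genes. Cdc6, which loads the replicative helicase, had 935, 602 and 304 bp (-1.17), Prim1, a primase subunit, had 596, 168 and 153 bp (-1.17), and Tk1 had 298, 164 and 21 bp (-1.17). Mybl2, a cell cycle transcription factor, was higher with 214, 670 and 682 bp (1.09). Of 31 G1 regulators, 2 (6.45%, near the 4.96% of all covered genes) were called higher and none lower. The 2 were cyclin E2 (Ccne2, 427, 758 and 1199 bp, 1.16) and the inhibitor Cdkn2d (521, 753 and 1300 bp, 1.06).

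Histone genes stood lower, with shared windows. Of 71 covered histone protein genes, 16 (22.5%) were called lower and none higher, 63 lay below 0, and the median was -0.37. Over all covered genes 4.53% were called lower and 4.96% higher. All 16 lie on chromosome 13, where 51 members were covered. Their windows overlap, so the 71 genes reduce to 24 separate loci, of which 3 were called lower and 18 lay below 0. None was called lower when bp in other gene windows were left out, and 4 were without the flank. H2ac15, for example, had 1324, 878 and 178 bp (-2.01), values it shares with H2bc15 and H4c12.

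Energy metabolism, housekeeping, chromatin, clock and imprinted genes were also counted, beside 4.96% higher and 4.53% lower over all covered genes. All 69 listed oxidative phosphorylation genes were covered, 50 lay below 0 with a median of -0.14, and 2 (2.90%) were called lower. The 2 were Ndufs4 (1719, 913 and 733 bp, -1.04, but 0.11 within 1 kb of its start site) and Ndufs8 (982, 1142 and 229 bp, -1.46). Glucose uptake and glycolysis genes tilted the other way, with 25 of 34 above 0 and a median of 0.16. The 2 called higher (5.88%, near the share of all covered genes) were Pdha1 (176, 509 and 716 bp, 1.28) and Slc2a8 (199, 442 and 727 bp, 1.22). Of 82 cytosolic ribosomal protein genes, 1 was called (Rpl35, 0, 741 and 383 bp), with a median of 0.01. None of 37 proteasome genes was called (median 0.09), with Psma3 at 2251, 2677 and 2692 bp. None of 23 H3K4 methyltransferase and demethylase genes was called (median -0.11), with Kmt2c at 1819, 1815 and 1742 bp and Kdm5a at 1857, 1823 and 1705 bp. Clock genes had 16 of 21 members above 0 (median 0.24) and 2 (9.52%) called higher (none with 500 bp added). The 2 were Arntl (488, 1074 and 1293 bp in fewer and wider peaks, 1.12), a core activator, and Rora (1339, 2447 and 2948 bp, 1.03). Of 21 imprinted genes, 4 (19.0%) were called lower and 1 (4.76%) higher (median -0.22), though none was called with 500 bp added. The lower ones included Snrpn (739, 769 and 186 bp, -1.28, but 0.06 without bp shared with other genes) and Mkrn3 (410, 487 and 0 bp).

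**Figure D5:**
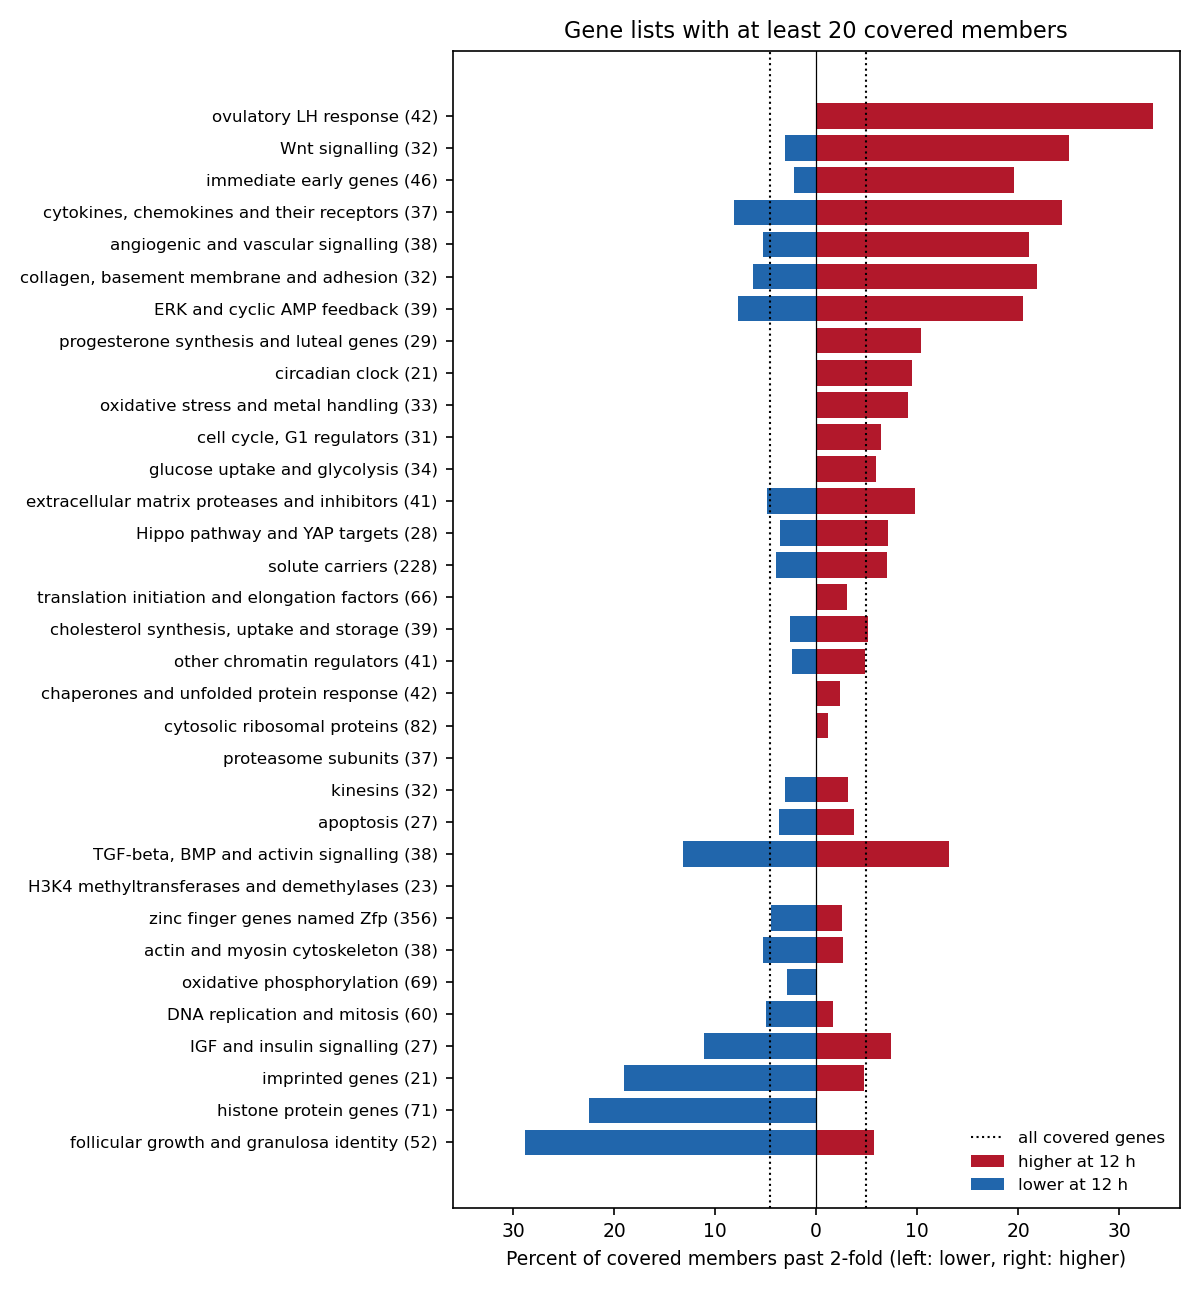
Percent of covered members called lower (left) and higher (right) at 12 h for each gene list with at least 20 covered members, whose number is in parentheses. Dotted lines mark the 4.53% and 4.96% of all covered genes, and the LH-response list (33.3% higher) and the follicular list (28.8% lower) extend furthest.

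Several of the largest differences in covered bp were at genes not yet described, within or outside the lists. Scp2, a sterol carrier protein, had 1732, 3749 and 3696 bp (1.01). Bcat1, which starts the breakdown of branched-chain amino acids, had 522, 1651 and 2410 bp (1.85). Hmga1, a chromatin architectural protein of the same family as Hmga2, had 0, 1654 and 1868 bp. Msi1, an RNA-binding protein, had 0, 2629 and 1771 bp, and Arl4d, a small GTPase, had 0, 621 and 1753 bp. Arl4d had most of its coverage only at 12 h, and Msi1 had more at 4 h. Prdx2, a peroxidase, had 1164, 3164 and 2776 bp (1.13), but this includes the signal at Junb, and with a flank of 1 kb its log2 ratio was -0.20.

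Among the genes with less coverage, Greb1, an oestrogen-induced gene, had 3489, 3319 and 1512 bp (-1.11), with little difference up to 4 h. Slc26a7, an anion transporter that shares its peaks with Lrrc69, had 2417, 1254 and 449 bp (-2.01). Zfp385b, a zinc finger gene, had 2967, 2151 and 1119 bp (-1.26), and Etl4 had 2867, 2650 and 929 bp (-1.44). Apoa4, an apolipoprotein, had 1684, 644 and 0 bp. Neu3, a sialidase of gangliosides, had 2348, 1087 and 808 bp (-1.34).

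Some of the most widely covered genes hardly differed, though windows differ in length and levels between genes are not compared. Chd9, a chromatin remodeller, had 3793, 3286 and 3688 bp at 0 h, 4 h and 12 h (log2 ratio -0.04), and Dnajb4, a co-chaperone, had 3479, 3596 and 3507 bp (0.01). Mxi1, a MAX-binding repressor, had 3606, 3728 and 3384 bp (-0.09), and the forkhead factor Foxp1 had 3546, 3637 and 3339 bp (-0.08). Of the 10 genes with the most covered bp at 0 h, 4 were called lower, 3 of them neighbours at the Hsd17b1 locus and the other Greb1, and of the 10 at 12 h only Scp2 was called, as higher.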

How the data were processed

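H3K4me3 peak positions in granulosa cells were analysed for 0 h and 12 h, with 4 h as a level. The authors deposited a peak list per library with chromosome, start, end and name and no score or other value, so the unit used here is bp of covered positions. The submitters' processing notes name CASAVA 1.8, Bowtie2 2.2.3, MACS2 2.0.9 and mm10. Neither the peak-calling threshold nor the role of an input library is given in those notes.

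Peaks on the autosomes and X were merged per library and intersected with each protein-coding gene of RefSeq (GRCm38.p6, the same build) plus 5 kb on each side. A gene was called at a log2 ratio of at least 1 or at most -1 after 200 bp were added. This is a description, with no test, since there was 1 library per time. Python 3.11.15, numpy 2.4.6, pandas 2.3.3 and matplotlib 3.10.9 were used, and the counting was tested on simulated data. Start sites came from 21045 RefSeq promoter entries, matched by gene identifier for 17274 genes (79.9%). Where a gene had several entries, the one with the most covered bp within 1 kb, 0 h and 12 h together, was kept. Exons, introns and UTRs were not analysed here.

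The comparison, its genes and 44 gene lists were chosen with earlier results of these data known. On the lists, 3 members (Kdm5d, Mirg and Napd) were not found. Named genes are the 15 called genes with the largest gain and the 15 with the largest loss in bp, the 10 with the most bp at each time, and up to 4 called members per list and direction, or up to 2 with the most bp where none was called. Unnamed gene models were left out. The called members of the follicular (but for 1 not reported here), LH-response and immediate early lists, the cell type markers, and Egr1, Id1 and Nppc were added after their values were seen. Results were recomputed under 12 other settings listed at the outset and 1 added later.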

Additional observations from a re-analysis of the deposited data

Results flagged for a closer look

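Peaks on chromosome Y drew attention because that chromosome lies outside the comparison and the mice were female. There were 28 peaks on it at 0 h and 25 at 12 h, covering 5549 and 7078 bp, with median widths of 195 and 257 bp. The 4 h list had 43. No other control library gives a level to compare with, and the source of these peaks was not tested.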

How the results depend on the processing

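The counts depend on the threshold. Genes called higher (639) numbered 964 with 100 bp added and 184 with 500 bp, 1514 at 1.5-fold, and 1023 with peaks under 196 bp left out. Genes called lower (584) numbered 976 and 143 with those additions, 1584 at 1.5-fold, 951 with peaks within 1 kb joined, and 1210 by number of peaks. The start site window of 1 kb, chosen after seeing the data, gave 415 in each direction. Calls on the lists came to 88 with 500 bp added and 505 at 1.5-fold. Immediate early genes called higher numbered 15 at 1.5-fold and 5 at the start site. LH-response genes called higher numbered 9 both with 500 bp added and at the start site, and follicular genes called lower 7 and 5. Histone genes called lower numbered 4 without the flank and 0 when bp in another gene window were left out. The share of calls that were higher was 52.2%, and 42.7% by number of peaks. Of 150 named genes called, 69 kept their call with 500 bp added and 135 with peaks joined, and 65 of the 116 with a start site value kept it there. By number of peaks the log2 ratio reversed for Arntl (-1), Ltbp3 (-1), Cxcr4 (-0.58) and Zfp512 (-0.58). At the start site it reversed for Axin2 (-0.32), Errfi1 (-0.43), Ltbp3 (-0.864), Ndufs4 (0.11), Prdx2 (-0.16), Srebf1 (0.033) and Tuba1c (-0.61). It also reversed for Prdx2 without the flank and with 1 kb (-0.20 in both), Coasy with 1 kb (0.063), Notch3 with 10 kb (0.078), and Snrpn with bp in no other window (0.061). The causes were not tested. No paired analysis was possible because there was 1 library per time. Depth is unknown, so a gene listed at 0 bp may carry H3K4me3 below the peak threshold.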

Other observations

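The X chromosome had a larger share of genes called lower than the autosomes. Of 408 covered X-linked genes, 42 (10.3%, at 36 separate loci) were called lower and 22 (5.39%) higher, against 4.34% and 4.95% of 12477 autosomal genes. Of those 42 genes, 30 were listed at 0 bp at 12 h. Median coverage at 0 h was 601 bp on the X and 837 bp on the autosomes, so the shares were also set out by level. Among genes with more than 500 and up to 1000 bp at 0 h, 21 of 191 on the X and 178 of 5117 on the autosomes were called lower. Among genes with up to 500 bp it was 14.3% and 10.3%, and with over 1000 bp 4.17% and 2.66%. The number of X-linked genes called lower was between 13 and 78 over the alternatives.

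CpG content of the RefSeq promoter stretches differed between the groups of genes. The median number of CpG per 300 bases was 21 for covered genes and 3 for genes covered at neither time. It was 22 for genes within the 2-fold limits, 19 for those called higher and 16 for those called lower. The CCAAT box (CCAAT, both strands) was in 42.4% of promoters of genes called lower and 33.4% of those called higher, against 38.5% of covered genes. The cyclic AMP response element (TGACGTCA) was in 3.36% of promoters of covered genes. The shares were 1.87% (9 genes) for genes called higher and 1.55% (7 genes) for those called lower. For the NR5A motif (CAAGGTCA) the shares in genes called higher, called lower and covered were 0.622% (3 genes), 1.55% (7 genes) and 0.877%. For RUNX (TGTGGTT) the shares were 4.77%, 4.86% and 3.35%. They were 5.39%, 6.62% and 5.53% for the GATA-factor motif (AGATAA), and 8.09%, 7.95% and 6.31% for the TATA-box motif (TATAAA). For the E-box (CACGTG) they were 8.92%, 11.3% and 10.03%, and for E2F (TTTCCCGC) 1.04% (5 genes), 0.883% (4 genes) and 2.14%. Motifs were searched on both strands and may overlap each other.

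Both S100a6 and its neighbour S100a5, calcium-binding proteins, were listed at 0 bp at 0 h and 4 h and had 1277 bp at 12 h, in the same peaks. Hspb1, a small heat shock protein, was likewise listed at 0 bp at 0 h and 4 h and had 536 bp at 12 h. Tmsb4x, which binds actin monomers, had 0, 1060 and 966 bp. Among solute carriers, 16 of 228 covered genes (7.02%) were called higher and 9 (3.95%) lower, with a median log2 ratio of -0.02. Over all covered genes the shares were similar, 4.96% and 4.53%. Slc6a8, the creatine transporter, had 0, 958 and 881 bp.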
